A study of Homo sapiens with 12 samples.

Results

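A set of 10 nuclear genes whose products copy, transcribe, or stabilize the nucleic acids of mitochondria was described in TIGK cells, a telomerase-immortalized line of human gingival keratinocytes. They were chosen by name (TFAM, POLRMT, TFB1M, TFB2M, MTERF1, MTERF3, LRPPRC, SLIRP, POLG, and POLG2) and made up 10 of the 58735 genes in the count table. All groups were kept in 48 mM glucose, in a base medium without Arg that was supplemented with growth factors, pituitary extract, and hydrocortisone. The Arg groups received 500 μM L-arginine (Arg) for 24 or 48 h, and the untreated control groups received none for the same times. Poly(A) RNA was sequenced from 12 libraries, with replicates A, B, and C in each of these 4 groups. A single immortalized line was used, so the values describe that line alone.

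Mitochondrial DNA (mtDNA) is packaged by TFAM, which also bends the promoters so that the RNA polymerase POLRMT and its partner TFB2M can start transcription. The long transcripts are cut into mRNAs, rRNAs, and tRNAs, and the mRNAs are stabilized by a complex of LRPPRC and SLIRP. The DNA polymerase POLG and its accessory subunit POLG2 replicate mtDNA, while the ribosome depends on TFB1M, a methyltransferase of the small-subunit rRNA, and the MTERF proteins bind mtDNA or mitochondrial RNA.

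The libraries held between 16542243 and 19040964 counts, and all 10 genes passed the filter on low counts in each comparison. Of 8 keratinocyte markers, KRT5 was at 24118 CPM (counts scaled to a common library size) or more in all libraries. TP63 was at 102 to 198 CPM and DSG3 at 81.9 to 354 CPM. From 24 to 48 h, 3 of the 8 rose and 2 fell at an adjusted p under 0.05 by edgeR, both without and with Arg. Of all tested genes, 19.9% and 28.3% passed in either direction. Of 12 markers of other cell types, the summed level lay between 13.5 and 18.1 CPM at 24 h and between 26.9 and 33.7 CPM at 48 h, and COL1A1 made up most of it, with 10.8 to 27.0 CPM. VIM, COL1A2, COL3A1, PTPRC, CD68, CD3E, PECAM1, and MLANA were at 0 in at least 1 library. The part of the markers of either kind in the differences between 24 and 48 h was not tested. Control replicate B at 48 h stood apart from the other 48 h controls, with 1.55% of its counts in mitochondrially encoded genes against 0.707% and 0.906% in replicates C and A. The share was 1.20% to 1.30% in the 24 h controls and 1.14% to 1.31% in the 48 h Arg libraries. Whether replicate B or replicates A and C were the unusual ones was not tested. The 48 h differences by Arg are also given without replicate B, as a description. Nothing in the labels says that replicates came from separate cultures, so the p-values measure only the spread between these libraries, which may be technical. In bulk RNA, fewer cells that express a gene and less RNA per cell cannot be told apart.

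The promoters of 9 of the 10 genes were matched in RefSeq (GRCh38.p14), which lists 2 starts for SLIRP, and the window of the first start was used. The windows were searched on both strands for letters that known regulators of mitochondrial genes bind. CCGGAAG, a site of the ETS family, stood in the 300-base windows of 5 of the 9 genes (POLRMT, TFB1M, MTERF1, SLIRP, and POLG2) and in 10.3% of 35116 promoters. GCGCATGC, a core of the NRF1 site that was chosen after the sequences had been seen, stood in 3 (POLRMT, TFB1M, and TFB2M) and in 3.05% of all promoters, while the full NRF1 consensus stood in 0 of the 9 and in 1.48%. AAGATGGC, the YY1 site, was found in SLIRP alone among the 9 genes and in 2.89% of promoters, and neither TGACGTCA (CRE, 1.85%) nor CACGTG (E-box, 7.26%) stood in any of the 9 windows. The windows of TFAM, LRPPRC, and POLG held none of these letters. Close variants of the letters were not searched, so a window without a match can still hold a site of the same regulator. The shares are over all promoters, which were not matched to the 9 windows in base composition, so they do not measure an enrichment. A match describes the letters only, and no binding was measured. The 250 bases before the RefSeq start are shown for POLRMT (chr19:633538-633787, minus strand), TFB2M (chr1:246566262-246566511, minus strand), and SLIRP (chr14:77707853-77708102, plus strand), because these members are among those with differences below and hold matches. Each sequence is written 5′ to 3′ on the strand of its gene, with the matches in capitals. In POLRMT, the NRF1 core began at positions -132 and -24 before the start and overlapped its own reverse complement at the second, and the ETS letters began at -93. In TFB2M, the core began at -15 on the other strand. In SLIRP, the YY1 letters began at -112 on the other strand and the ETS letters at -76, and a second YY1 match began 6 bases after the start, outside the sequence shown. The window of the other SLIRP start held the ETS and YY1 letters as well.
POLRMT: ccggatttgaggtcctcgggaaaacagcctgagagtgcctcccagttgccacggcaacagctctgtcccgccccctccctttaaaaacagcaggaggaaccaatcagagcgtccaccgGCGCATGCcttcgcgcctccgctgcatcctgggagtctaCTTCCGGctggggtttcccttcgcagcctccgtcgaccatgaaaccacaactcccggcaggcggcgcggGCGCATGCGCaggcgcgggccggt
TFB2M: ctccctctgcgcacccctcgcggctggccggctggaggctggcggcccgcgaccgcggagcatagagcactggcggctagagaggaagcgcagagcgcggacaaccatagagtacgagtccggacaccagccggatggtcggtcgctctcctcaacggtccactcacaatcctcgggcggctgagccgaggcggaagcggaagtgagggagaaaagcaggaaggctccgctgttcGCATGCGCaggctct
SLIRP: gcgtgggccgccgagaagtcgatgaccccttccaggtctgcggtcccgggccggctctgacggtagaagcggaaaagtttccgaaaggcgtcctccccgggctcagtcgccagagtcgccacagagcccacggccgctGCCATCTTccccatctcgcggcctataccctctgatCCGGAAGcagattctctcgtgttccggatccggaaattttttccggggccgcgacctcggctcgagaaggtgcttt

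The levels of the 10 genes per length were compared as TPM, which divides the counts by a length before scaling, with the exonic length in the count table. Over the 12 libraries, LRPPRC had the highest mean TPM, 125 ± 11.8 (SD, n = 12), followed by SLIRP at 113 ± 13.6, TFAM at 102 ± 7.89, TFB2M at 86.6 ± 8.29, and MTERF3 at 77.9 ± 9.15. Over the libraries, the TPM ranges of neighbors in this order overlapped. Within each of the 12 libraries, TFAM was nevertheless above TFB2M, while the other neighboring pairs changed order between libraries. The order also moved between groups. Mean TPM of SLIRP was above that of LRPPRC in the controls at 24 h (122 against 112) and at 48 h (125 against 121), and with Arg at 24 h TFAM (109) was above SLIRP (103). POLG (43.7 ± 3.44) and POLRMT (25.8 ± 2.03) lay apart from their neighbors. MTERF1 (12.1 ± 0.939) and POLG2 (11.0 ± 1.43) overlapped each other, and TFB1M was lowest at 7.17 ± 0.947. The length used moved SLIRP most, because its exonic length in the table was 2631 bases and that of its Ensembl canonical transcript 376 bases. Over canonical transcripts, the TPM of SLIRP was 443 ± 50.8 and that of LRPPRC 104 ± 10.8, and TFB1M remained lowest at 3.92 ± 0.530.

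LRPPRC (chr2:43886508-43996005, minus strand) encodes a pentatricopeptide repeat protein that binds mitochondrial mRNAs. Its level was 302, 300.4, and 315 CPM in control replicates A, B, and C at 24 h and 363, 331, and 334 CPM in the Arg replicates. All 3 Arg libraries lay above the controls. The log2 fold change was 0.16 ± 0.074 (SE, n = 3 per group, 95% interval 0.0072 to 0.32), with an unadjusted p of 0.0413 and an adjusted p of 0.198 (edgeR's quasi-likelihood test). The unadjusted p stayed under 0.05 in 3 of 9 alternative settings, and among the 6 fits without 1 library only without Arg replicate B (0.0421), reaching 0.128 without Arg replicate A and 0.101, 0.0750, 0.0589, and 0.0663 without control replicates A, B, and C and Arg replicate C. At 48 h, LRPPRC was at 289, 339, and 295 CPM in the controls and at 327, 360.4, and 353 CPM with Arg. Control replicate B lay within the Arg range. The difference was again 0.17 ± 0.073 on the log2 scale (95% interval 0.011 to 0.33), with an unadjusted p of 0.0383 (adjusted p = 0.341 by edgeR). Without control replicate B, the LRPPRC difference at 48 h was 0.24 on the log2 scale, with an adjusted p of 0.00463 by edgeR. That replicate was the highest of the 48 h controls for LRPPRC, so leaving it out raises this difference by construction. The unadjusted p was over 0.05 without control replicate A or C (0.156 and 0.128), without Arg replicate B or C (0.142 and 0.0909), and under the corrections for length (0.0790 to 0.0905).

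SLIRP (chr14:77708071-77761104, plus strand) encodes the small RNA-binding partner of LRPPRC. It was at 98.2, 82.1, and 89.0 CPM in the 24 h controls and at 87.6, 63.6, and 69.0 CPM in the Arg libraries. Arg replicate A lay within the control range, and the other two lay below it. The log2 fold change at 24 h was -0.29 ± 0.11 (SE, n = 3 per group, 95% interval -0.53 to -0.059), with an unadjusted p of 0.0170 (adjusted p = 0.124 by edgeR). It passed the adjusted threshold without Arg replicate A (-0.44, adjusted p = 0.0148 by edgeR), and had an unadjusted p of 0.106 without Arg replicate B, 0.0691 without Arg replicate C, and 0.0911 without control replicate A (edgeR). At 48 h, SLIRP was at 88.0, 86.5, and 82.1 CPM in the controls and at 70.2, 71.5, and 67.8 CPM with Arg, and the groups did not overlap. The log2 fold change was -0.30 ± 0.068 (95% interval -0.44 to -0.15), which is a 0.815-fold level, with an unadjusted p of 0.000901 and an adjusted p of 0.138 by edgeR. The adjusted p at 48 h was 0.0296 with DESeq2, 0.0287 without the filter on low counts, and 0.00548 without control replicate B. SLIRP is uncertain in these counts, because it overlaps SNW1 on the opposite strand, with 20836 counts against 17340 for SLIRP, and the strand setting of the counting is not given in the sources used here. The overlapping gene SNW1 differed by 0.035 ± 0.082 at 24 h and by 0.062 ± 0.063 at 48 h on the log2 scale, with adjusted p of 0.845 and 0.702 by edgeR.

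The ratio of LRPPRC to SLIRP in CPM, which compares 2 genes within each library, is given as a description without a test. It was 3.07, 3.66, and 3.54 in the 24 h controls and 4.14, 5.21, and 4.84 in the 24 h Arg libraries. At 48 h, it was 3.29, 3.92, and 3.60 in the controls and 4.65, 5.04, and 5.21 with Arg. Each Arg library had a higher ratio than each control library at the same time. Both genes were known to move in these data before the ratio was formed, so this separation is not an independent result. The mean ratio was 3.42 ± 0.308 and 4.73 ± 0.540 (SD, n = 3) without and with Arg at 24 h, and 3.60 ± 0.315 and 4.97 ± 0.290 at 48 h. The differences in the log2 ratio were 0.46 and 0.47, and the second was 0.35 after a correction for transcript length.

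**Figure D1:**
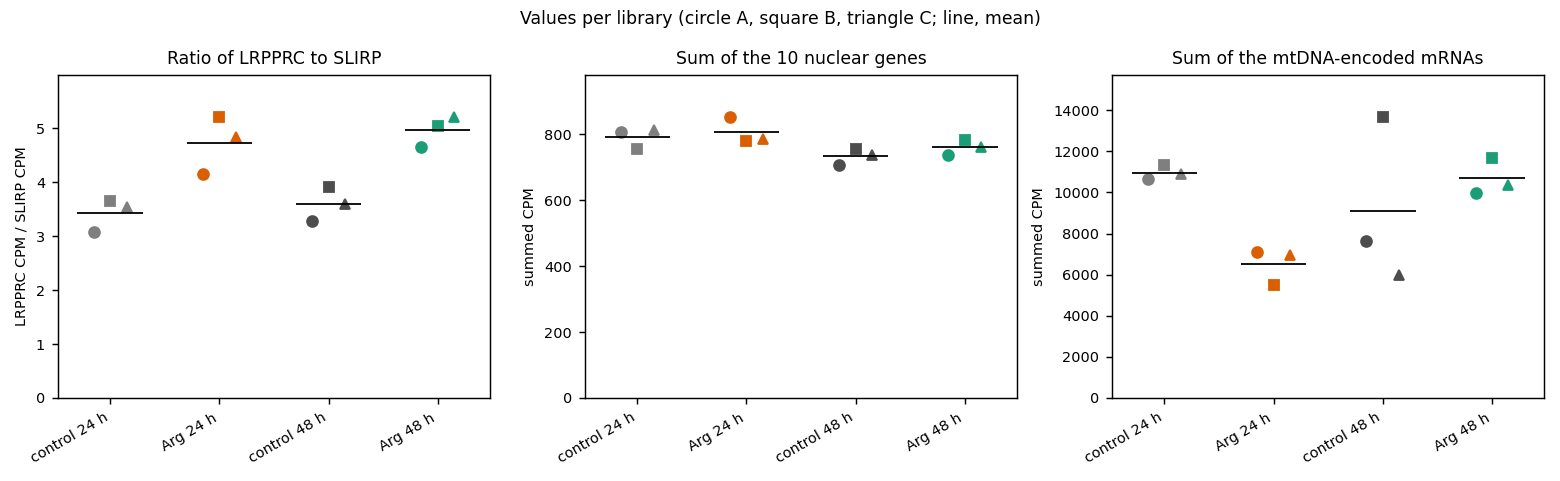
Values per library for the ratio of LRPPRC to SLIRP CPM (left), the summed CPM of the 10 nuclear genes (middle), and the summed CPM of the 13 mtDNA-encoded mRNAs (right), with the 4 groups on the x axis, marker shapes for replicates, and lines for means. The ratio was 3.07 to 3.92 in control and 4.14 to 5.21 in Arg libraries, while the summed mtDNA-encoded mRNAs were 5515 to 7084 CPM in the 24 h Arg libraries and 5965 to 13683 CPM in the 48 h controls.

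TFAM (chr10:58385022-58399221, plus strand) was at 168, 149, and 172 CPM in the 24 h controls and at 178, 159, and 157 CPM with Arg. The groups overlapped, and the log2 difference was 0.014 ± 0.085 (95% interval -0.17 to 0.19, adjusted p = 0.943 by edgeR). At 48 h, TFAM was at 126, 140.3, and 140.2 CPM in the controls and at 139.7, 148, and 148 CPM with Arg. Control replicates B and C lay above Arg replicate A, and the difference was 0.098 ± 0.067 (95% interval -0.049 to 0.24, adjusted p = 0.560 by edgeR). Without control replicate B, it was 0.13 (adjusted p = 0.195 by edgeR). The intervals with all libraries allow changes by Arg of up to 0.24 on the log2 scale for TFAM.

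TFB2M (chr1:246540560-246566324, minus strand), which helps POLRMT to open the promoter, was at 50.3, 40.2, and 49.1 CPM in the 24 h controls and at 48.4, 46.5, and 47.2 CPM with Arg. At 48 h, it was at 36.8, 38.6, and 38.7 CPM in the controls and at 42.7, 39.6, and 35.0 CPM with Arg. The Arg libraries lay within the control range at 24 h and on both sides of it at 48 h. The log2 differences were 0.024 ± 0.10 and 0.039 ± 0.093 (adjusted p = 0.917 and 0.892 by edgeR), and the second was 0.052 without control replicate B (adjusted p = 0.763).

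POLRMT (chr19:617224-633604, minus strand) was at 37.2, 37.3, and 36.1 CPM in the 24 h controls and at 37.5, 36.3, and 38.4 CPM with Arg, a log2 difference of 0.020 ± 0.092 (adjusted p = 0.926 by edgeR). At 48 h, the controls were at 34.3, 31.8, and 39.7 CPM and the Arg libraries at 29.6, 32.3, and 32.2 CPM. The difference of -0.17 ± 0.10 had a 95% interval of -0.39 to 0.045 (adjusted p = 0.478 by edgeR). Without control replicate B, the lowest of the 48 h controls for POLRMT, it was -0.24 (adjusted p = 0.0839 by edgeR).

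MTERF3, a member of the termination factor family that limits mtDNA transcription and takes part in ribosome assembly, was at 45.6, 39.8, and 49.0 CPM in the 24 h controls and at 41.5, 36.9, and 39.8 CPM with Arg. The groups overlapped, and the difference was -0.19 ± 0.10 on the log2 scale (95% interval -0.40 to 0.026, adjusted p = 0.285 by edgeR). At 48 h, MTERF3 was at 32.0, 30.6, and 35.1 CPM in the controls and at 32.3, 35.7, and 32.6 CPM with Arg (log2 difference 0.040 ± 0.093, adjusted p = 0.885 by edgeR), and the difference without control replicate B was -0.0022 (adjusted p = 0.990). Its relative MTERF1 (chr7:91692008-91880720, minus strand), which binds within a tRNA gene of mtDNA next to the rRNA genes, ranged over the 12 libraries from 13.3 to 17.4 CPM, with log2 differences by Arg of 0.022 ± 0.13 at 24 h and 0.17 ± 0.13 at 48 h (adjusted p = 0.941 and 0.595 by edgeR), or 0.19 at 48 h without control replicate B (adjusted p = 0.343).

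The DNA polymerase subunits and the rRNA methyltransferase did not pass a threshold in either Arg comparison. POLG (chr15:89305198-89334861, minus strand) ranged from 59.7 to 76.5 CPM over the 12 libraries, with log2 differences of -0.071 ± 0.088 at 24 h and -0.10 ± 0.091 at 48 h (adjusted p = 0.678 and 0.657 by edgeR). POLG2 (chr17:64477785-64497036, minus strand) ranged from 7.77 to 13.0 CPM, with differences of -0.11 ± 0.16 and -0.26 ± 0.17 (adjusted p = 0.728 and 0.531 by edgeR). TFB1M (chr6:155257509-155314493, minus strand) was the gene with the fewest counts, between 75 and 116 per library, and its 95% intervals reached from -0.28 to 0.56 at 24 h and from -0.30 to 0.63 at 48 h. Control replicate B was the lowest of the 48 h controls for POLG and POLG2 as well. Without it, POLG was lower with Arg by -0.20 and POLG2 by -0.35 on the log2 scale (adjusted p = 0.0521 and 0.144 by edgeR), and TFB1M differed by 0.11 (adjusted p = 0.800). POLG overlaps FANCI on the opposite strand (22418 counts against 15126 for POLG), and TFB1M overlaps TIAM2 (1397 against 1135), so the counts of both are uncertain. The pseudogenes TFAMP1 and TFAMP2 of TFAM had 0 counts in all, and POLRMTP1 had 67 against 7652 for POLRMT.

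**Figure D2:**
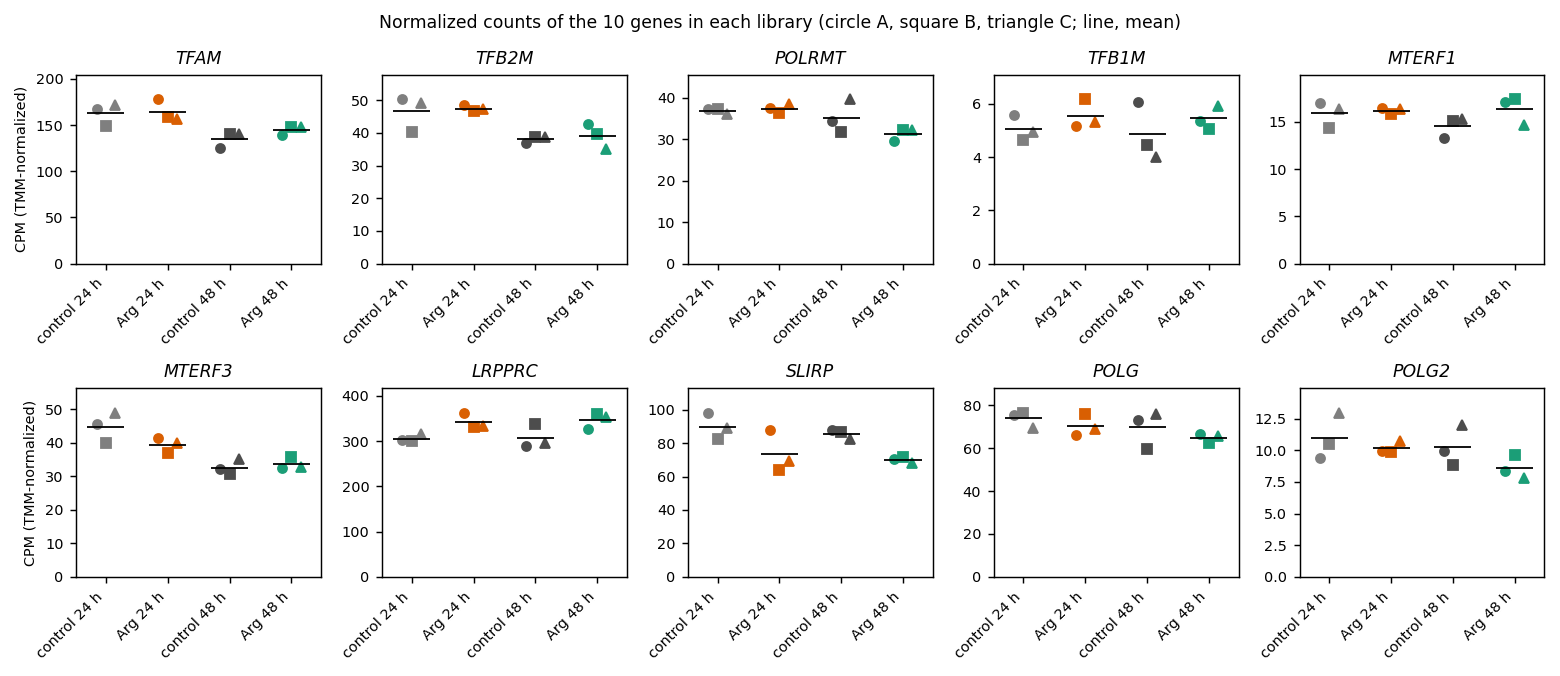
CPM of each of the 10 genes on the y axis, from 0, by group on the x axis, with a marker for each replicate and a line for the mean of 3 libraries. LRPPRC lay between 300.4 and 315 CPM in the 24 h controls and between 331 and 363 CPM with Arg, and SLIRP at 48 h between 82.1 and 88.0 CPM without Arg and between 67.8 and 71.5 CPM with it.

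Among the 10 genes, LRPPRC and SLIRP were called by Arg before adjustment at both times, and 0 of the 10 after it. At 24 h, 2 of 10 had an unadjusted p under 0.05 (LRPPRC and SLIRP), against 22.8% of the 14279 genes tested, and 0 of 10 had an adjusted p under 0.05, against 6.63%. The groups of 1 gene (LRPPRC) did not overlap, against 26.2% of all genes. The median log2 fold change of the 10 genes was 0.017, and that of all tested genes was 0.0030. At 48 h, 2 of 10 had an unadjusted p under 0.05 (again LRPPRC and SLIRP), against 13.4% of 14562 genes, and 0 of 10 passed after adjustment, against 0.117%. DESeq2 called 2 of 10 at an unadjusted p under 0.05 at each time, against 11.2% of 26579 genes with a p at 24 h and 6.43% of 27248 at 48 h. After adjustment, it called 0 of 10 at 24 h and 1 of 10 (SLIRP) at 48 h, against 8.0% of 13181 and 1.55% of 10871 genes with an adjusted p. The groups of 1 gene (SLIRP) did not overlap at 48 h, against 17.1%. The median was 0.039 for the 10 genes and 0.0018 for all tested genes. Without control replicate B, 5 of 10 had an unadjusted p under 0.05 (LRPPRC, SLIRP, POLG, POLRMT, and POLG2), against 29.3% of 14854 genes, and 2 of 10 (LRPPRC and SLIRP) passed after adjustment, against 15.9%. Replicate B was the highest 48 h control for LRPPRC and the lowest for POLRMT, POLG, and POLG2. Leaving it out enlarges the differences of these genes by construction, and the calls without it are a description only. The difference between the Arg effects at 48 and 24 h was tested as an interaction over all 12 libraries. Of the 10 genes, 0 had an unadjusted p under 0.05 in it by edgeR or by DESeq2, against 6.87% of 15148 genes by edgeR and 3.54% of 29787 by DESeq2, and 0 had an adjusted p under 0.05, against 0.0132%. For SLIRP, the difference between the effects was -0.0021 ± 0.14 on the log2 scale, and for LRPPRC 0.0066 ± 0.10. The comparisons at 24 and 48 h share no libraries.

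From 24 to 48 h in culture, TFAM and MTERF3 were lower after adjustment without Arg, and TFB2M and POLRMT with it. No gene passed the adjusted threshold in both comparisons. In the untreated controls, TFAM fell by 0.26 ± 0.083 on the log2 scale (95% interval -0.44 to -0.082, adjusted p = 0.0443 by edgeR), and its libraries at 24 and 48 h did not overlap. MTERF3 fell by 0.46 ± 0.10 (95% interval -0.68 to -0.23, adjusted p = 0.0118 by edgeR), to 0.729 of its level at 24 h. TFB2M was lower in all 3 libraries at 48 h as well (-0.29 ± 0.10, adjusted p = 0.0653 by edgeR), and its adjusted p was 0.0377 with the replicate block and 0.0332 in a single model of all 12 libraries. In all, 3 of 10 genes were lower at an unadjusted p under 0.05, against 17.0% of 14449 genes, 2 were lower after adjustment, against 10% (1451 genes), and 3 were lower without overlap, against 19.7%, and 0 of the 10 were higher by any of these rules. Without control replicate B at 48 h, TFAM fell by 0.29 and MTERF3 by 0.41 (adjusted p = 0.0341 and 0.0185 by edgeR). The call for TFAM was lost without control replicate A or C at 24 h (adjusted p = 0.156 and 0.164) or at 48 h (0.164 and 0.0733), and that for MTERF3 without control replicate A or C at 24 h (0.0602 and 0.0675, edgeR).

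With Arg, TFB2M fell by 0.27 ± 0.090 from 24 to 48 h (95% interval -0.46 to -0.086, adjusted p = 0.0283 by edgeR). POLRMT fell by 0.26 ± 0.089 (95% interval -0.44 to -0.070, adjusted p = 0.0366 by edgeR). TFAM (-0.18 ± 0.071, adjusted p = 0.0640) and MTERF3 (-0.23 ± 0.090, adjusted p = 0.0622 by edgeR) had an unadjusted p under 0.05 only. With the transcript length correction, TFAM passed after adjustment (0.0171, or 0.0385 with the replicate block, edgeR). The unadjusted p of MTERF3 was 0.128 to 0.166 under the corrections for length (edgeR). Of the 10 genes, 4 were lower at an unadjusted p under 0.05, against 19.2% of 14398 genes, 2 after adjustment, against 14.0%, and 5 were lower without overlap (TFAM, TFB2M, POLRMT, MTERF3, and POLG2), against 21.2%. Median log2 differences over time were -0.088 without Arg and -0.15 with it, against 0.012 and 0.00092 for all tested genes. The TFB2M call was lost without Arg replicate C at 24 h (adjusted p = 0.0615) or replicate B or C at 48 h (0.0772 and 0.154), and under the corrections for length (0.105 to 0.134, edgeR). The POLRMT call was lost without Arg replicate C at 24 h (0.110), without Arg replicate A, B, or C at 48 h (0.149, 0.0799, and 0.0663), and with DESeq2 (0.0563), and it was kept in 4 of 9 alternative settings that used all libraries. LRPPRC and SLIRP differed little over time, with log2 differences of 0.013 ± 0.077 and -0.066 ± 0.086 without Arg and 0.017 ± 0.066 and -0.070 ± 0.097 with Arg. That a gene passed with or without Arg and not in the other does not show a difference between the 2, which is the interaction given above and was passed by 0 of the 10 genes.

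**Figure D3:**
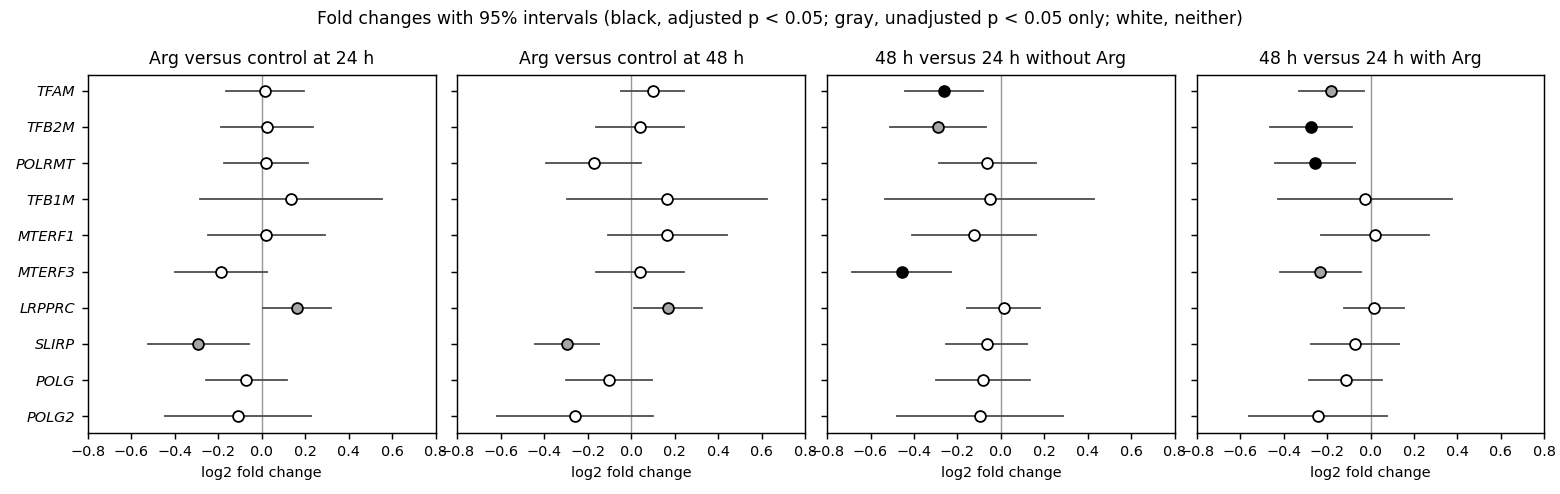
Log2 fold changes (x axis) of the 10 genes (y axis) in the 4 comparisons, with bars for 95% intervals from edgeR, black points for an adjusted p under 0.05, gray points for an unadjusted p under 0.05 only, and white points for neither. By Arg, LRPPRC (0.16 and 0.17) and SLIRP (-0.29 and -0.30) were gray at both times, and over time the black points were TFAM and MTERF3 without Arg and TFB2M and POLRMT with Arg.

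Other genes of mitochondrial gene expression were read from lists by function. Among 12 genes of mtDNA replication and repair, 0 passed the adjusted threshold at either time, and 1 was lower at an unadjusted p under 0.05 at each. The 2 with the smallest p at 24 h were TOP1MT, the mitochondrial topoisomerase (-0.26 ± 0.10, adjusted p = 0.150 by edgeR), and EXOG, an exonuclease (-0.38 ± 0.21, adjusted p = 0.298). At 48 h, TOP1MT differed by 0.067 ± 0.080 and EXOG by 0.0025 ± 0.19. Of 12 genes of nucleotide supply, 1 passed at 24 h and 0 at 48 h. SUCLA2, a subunit of succinyl-CoA ligase, fell by 0.30 ± 0.080 with Arg at 24 h (adjusted p = 0.0315 by edgeR), and its difference at 48 h was -0.14 ± 0.084 (adjusted p = 0.478). None of the 4 genes of transcription elongation and further MTERF proteins passed at an unadjusted p under 0.05 at either time. MRPL12, a ribosomal protein that also binds POLRMT, differed by -0.26 ± 0.14 at 24 h, and the elongation factor TEFM by -0.063 ± 0.14 (adjusted p = 0.257 and 0.829 by edgeR).

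Among 24 genes of mitochondrial RNA processing and turnover, 0 passed the adjusted threshold at either time, and 3 were lower and 1 higher at an unadjusted p under 0.05 at 24 h by edgeR, while DESeq2 called 2 lower after adjustment at 24 h. FASTKD5, which takes part in the maturation of mRNAs without flanking tRNAs, and REXO2, an oligoribonuclease, both differed by -0.33 on the log2 scale at 24 h (SE 0.10 for both, adjusted p = 0.0565 and 0.0611 by edgeR) and by -0.051 and -0.11 at 48 h. Of 10 nucleoid-associated proteins, 0 passed at an unadjusted p under 0.05 at either time, and PHB2 and CLPX differed by 0.14 ± 0.080 and -0.13 ± 0.088 at 24 h. Of 14 nuclear regulators, 13 were tested at 24 h and 0 passed the adjusted threshold. GABPB1, a subunit of an ETS family factor, was higher by 0.28 ± 0.10 and the receptor ESRRA lower by -0.26 ± 0.11 at 24 h (adjusted p = 0.108 and 0.158 by edgeR). At 48 h, GABPB1 differed by 0.12 ± 0.086 and ESRRA by -0.30 ± 0.11 (adjusted p = 0.560 and 0.261 by edgeR). The median log2 difference by Arg of these 6 lists lay between -0.055 and 0.064 at 24 h and between -0.12 and 0.065 at 48 h. When control replicate B was left out, the adjusted threshold at 48 h was passed by 3 nucleotide supply genes, 1 gene each of replication and repair, elongation, RNA processing, and the nucleoid, and 2 regulators, all lower, and by 1 regulator that was higher. Of all 14854 genes tested in that fit, 15.9% passed, 1213 lower and 1152 higher. From 24 to 48 h without Arg, 5 of 10 nucleoid-associated proteins and 4 of 12 replication and repair genes fell at the adjusted threshold, against 10% of all genes, while 1 nucleoid-associated protein rose. With Arg, 6 and 5 fell, against 14.0%, and 0 rose. Of the other lists, 1 of 12 nucleotide supply, 1 of 4 elongation, and 3 of 24 RNA processing genes fell without Arg. With Arg, 5, 1, and 6 of these genes fell, and 1 nucleotide supply gene rose. Of the nuclear regulators, 1 rose and 1 fell without Arg, and 2 rose and 2 fell with it.

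The mRNAs encoded in mtDNA, which these factors transcribe and stabilize, had lower counts with Arg at 24 h. The libraries were made from poly(A) RNA, and the tail lengths of these mRNAs were not measured. Of all tested genes, 3.84% were lower with Arg at 24 h at the adjusted threshold (edgeR). Of the 13 mtDNA-encoded mRNAs, 12 fell at the adjusted threshold, with a median log2 fold change of -0.71, among them MT-ND1 (-0.93 ± 0.092, adjusted p = 8.71e-06 by edgeR) and MT-CO2 (-0.85 ± 0.088), MT-CO1 (-0.82 ± 0.090), MT-ATP6 (-0.74 ± 0.082), and MT-CYB (-0.71 ± 0.082). At 48 h, 0 of 13 had an unadjusted p under 0.05 by edgeR or by DESeq2, and the median was 0.28. With control replicate B left out, 12 of 13 rose with Arg at 48 h at the adjusted threshold (edgeR), with a median of 0.69. That library was singled out by its high share of mitochondrially encoded counts, so leaving it out raises this difference by construction. The result at 48 h therefore rests on that library, and the fit without it is a description only. Summed over the 13 mRNAs, the level was 10635 to 11341 CPM in the 24 h controls and 5515 to 7084 CPM with Arg, while the summed level of the 10 nuclear genes was 754 to 814 CPM and 781 to 854 CPM in the same groups. At 48 h, the summed mRNAs were at 7649, 13683, and 5965 CPM in control replicates A, B, and C and between 9986 and 11679 CPM with Arg, and the 10 genes were at 709 to 755 CPM and 738 to 782 CPM. Control replicates A and C lay below the Arg libraries and replicate B above them. From 24 to 48 h, 13 of 13 mRNAs rose with Arg at the adjusted threshold (median 0.91), against 14.3% of all tested genes. Without Arg, 0 passed the adjusted threshold (2 lower at an unadjusted p under 0.05 by edgeR, median -0.071). When control replicate B was left out, 10 fell (median -0.54), a shift whose direction its high level likewise fixed in advance.

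**Figure D4:**
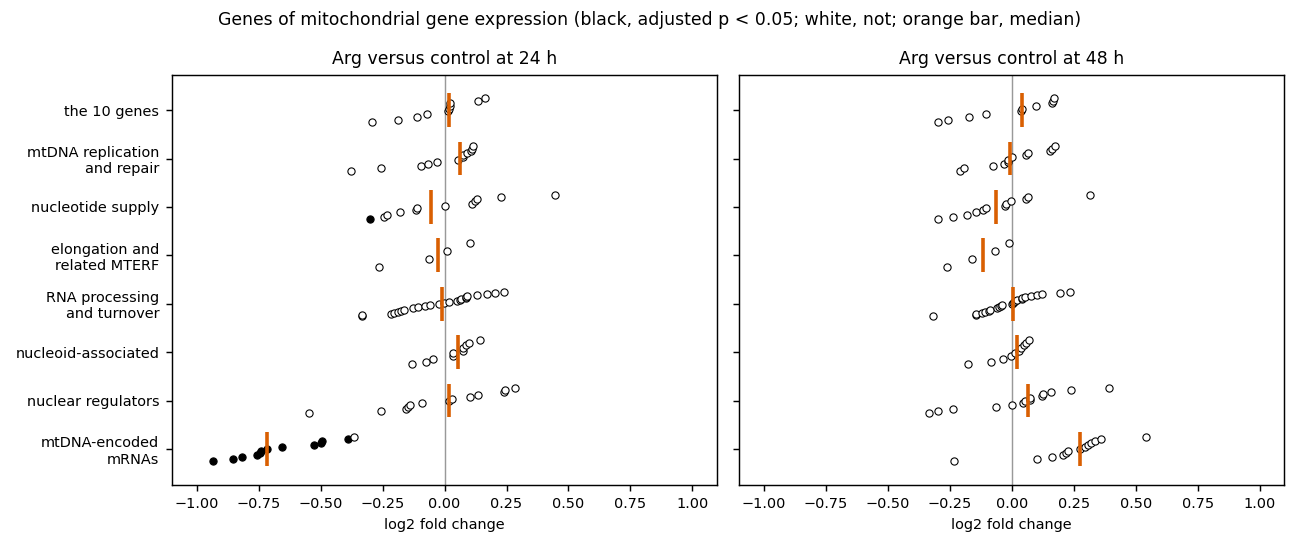
Log2 fold changes by Arg (x axis) at 24 h (left) and 48 h (right) for the 10 genes and 7 lists of other genes of mitochondrial gene expression (y axis), with a point per tested gene, black for an adjusted p under 0.05, and an orange bar for the median. At 24 h, 12 of 13 mtDNA-encoded mRNAs and SUCLA2 were black, and the medians were -0.71 for the mRNAs and 0.017 for the 10 genes, while at 48 h, with all libraries, 0 points were black.

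Across the 12 libraries, the genes most like 4 of the members were named by Pearson's r of log2 CPM among 15147 other genes, as a description. The libraries share groups and depth, so r reflects differences between groups as well as within them. TFAM was most like BCCIP (r = 0.978), NIFK (0.969), and SSR3 (0.966), and for POLRMT, MOCS1 (0.938) and AAAS (0.925) were among the most like. LRPPRC was most like RARS2 (0.946), NORAD (0.938), and RBM3 (0.927), and SLIRP most like ATP5MD (0.943), RPS21 (0.938), and SNRPN (0.938). Among the members, TFAM, TFB2M, and MTERF3 had r between 0.813 and 0.838 with each other over the 12 libraries. LRPPRC and SLIRP had r = -0.466, and the lowest value was r = -0.755 for LRPPRC with POLG.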

How the data were processed

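Raw gene counts of 12 poly(A) RNA libraries were used. The counts were deposited by the authors without normalization, after read filtering with fastp, mapping to GRCh38/hg38 with STAR, and counting with featureCounts. Versions, annotation release, and strand setting are not given in the sources used here. All columns were used, and 0 were left out.

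Libraries were grouped by their labels. Groups were compared in pairs with edgeR 4.0.16 in R 4.3.3 (TMM normalization, filterByExpr, quasi-likelihood test, no block), with Benjamini-Hochberg adjustment of the p-values across every gene that passed the filter. Intervals of log2 fold changes are 95% intervals of that fit. Calls were made at an unadjusted p under 0.05, the criterion of the study, and at an adjusted p under 0.05. The smallest p of an exact permutation test with 3 libraries per group is 0.1. The scripts were tested on simulated data. TPM used exonic length or the canonical transcript length of GENCODE v44. Counting error falls with depth and limits TFB1M and POLG2 most.

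The members and lists were chosen with earlier results of these data known. Named genes were the 10 members, at most 5 genes of a list with the smallest p among adjusted p under 0.05 by Arg or else the 2 with the smallest p at 24 h, and the 3 genes with the highest r for TFAM, POLRMT, LRPPRC, and SLIRP (prior count 2), of which 1 is not reported here. Alternatives were DESeq2 1.42.0, its size factors in edgeR, no filter on low counts, a replicate block, corrections for exonic length (lowess, span 0.3), a single model of 12 libraries, and leaving out each library. Corrections for transcript length were chosen after seeing the data.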

Additional observations from a re-analysis of the deposited data

How the results depend on the processing

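No result of the 10 genes that had passed a threshold reversed its direction under any alternative run. The count of genes by Arg at 24 h with an unadjusted p under 0.05 was 1, in place of 2, without the filter on low counts, with the replicate block, and with the corrections for exonic or transcript length with or without the replicate block, and the count after adjustment was 1, in place of 0, without the filter. At 48 h, the unadjusted count was 1 with those 4 length corrections, and the adjusted count was 1 with DESeq2 and without the filter. Without Arg over time, the adjusted count of 2 was 3 with the replicate block and in the single model, in which TFB2M also passed. With Arg over time, the adjusted count of 2 was 1 with DESeq2, without the filter, with the replicate block, with the exonic length correction, and in the single model, and 0 with exonic length and the replicate block together. Of all genes at 48 h, 0 were higher and 17 lower after adjustment with edgeR, 42 and 127 with DESeq2, 43 and 141 with the replicate block, 199 and 374 without the filter, and 1152 and 1213 without control replicate B, in which mitochondrially encoded genes were high. The LRPPRC to SLIRP log2 ratio by Arg at 48 h was 0.347 with the transcript length correction. Leaving out 1 library gave 0 to 2 genes at an unadjusted and 0 to 1 at an adjusted p under 0.05 by Arg at 24 h, 1 to 5 and 0 to 2 at 48 h, 2 to 3 and 0 to 3 over time without Arg, 2 to 4 and 0 to 3 over time with Arg, and 0 to 1 and 0 to 0 in the interaction. The log2 ratio lay between 0.389 and 0.557 at 24 h and between 0.403 and 0.529 at 48 h. The deviations of same-letter libraries from their group means correlated by -0.056 to 0.030 by Arg at 24 h and by -0.033 to 0.052 at 48 h. Over time, they correlated by 0.044 to 0.154 without Arg and by -0.043 to -0.011 with it. Pairs with different letters over time without Arg correlated by -0.133 to 0.105. Whether libraries with the same letter share a batch cannot be told from these values. The cause of the changes under the alternative runs was not tested.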
